A study of Mus musculus with 44 samples.

Results

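The comparison is of monocyte-derived macrophages sorted from mouse lungs at day 14 after bleomycin, in mice that carried old marrow against mice that carried young marrow. It rests on 6 of the 44 libraries of the study, 3 per marrow age. Young recipient mice, given in the labels as Bl6, were transplanted with bone marrow from young or aged donors. After reconstitution they received bleomycin, which injures the lung and leads to fibrosis, into the trachea at 1 U/kg. Both groups therefore had the transplant and the bleomycin, and no library of uninjured mice was analysed here. The sorted population is labelled MoAM, a usual short form for macrophages of the airspaces that derive from monocytes, and each sort gave 30000 to 80000 cells. The labels do not give the age of the donors in months, the gates of the sort, or whether each library of a group stands for another animal, and p-values here thus reflect only how libraries of a group vary, which may be technical. Another 8 MoAM libraries from day 7, 4 per marrow age, entered the same model.

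Monocytes that enter an injured lung mature into macrophages in the airspaces, where they take up debris, present antigen and release cytokines and matrix enzymes. In bleomycin injury they are known as a source of profibrotic signals to fibroblasts, with osteopontin (Spp1), macrophage elastase (Mmp12) and fibronectin (Fn1) among their typical transcripts. They carry complement C1q genes and lysozyme (Lyz2) as macrophage and myeloid markers. Because donor marrow gives rise to these cells, they differ in origin from resident alveolar macrophages, which can persist in the lung without it.

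The libraries were identified by the position of their data columns and not by the headers printed over them. The 44 headers were sorted bytewise and the title of each sorted header was given to the data column at that place. Old marrow at day 14 is then columns 26 to 28 and young marrow columns 33 to 35. All 44 printed headers differ from this order, and the printed headers name these 6 columns as libraries of AM and CD25pos cells. Lineage genes support the sorted order and go against the printed headers. The 12 libraries highest in a T cell list were all titled CD25pos or CD25neg by the sorted order, against 0 by the printed headers. The 13 highest in a resident alveolar macrophage list were all titled AM (0 by printed headers), the 5 highest in a classical monocyte list were all titled Monocytes (0), and the 14 highest in a macrophage list were all titled MoAM (0). Lineage genes check the cell population. No gene checks marrow age, and the lists do not check the day. Which of the 14 MoAM columns are of day 14, and which 3 of those are old, thus rests on the sorted order alone. Over 50 pairs of libraries of 1 group, the median Spearman correlation was 0.9018 in the sorted order and 0.8947 by the printed headers. The range was 0.6968 to 0.986 in both. With the printed headers taken as true, 1 gene was called for MoAM at day 14.

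**Figure D1:**
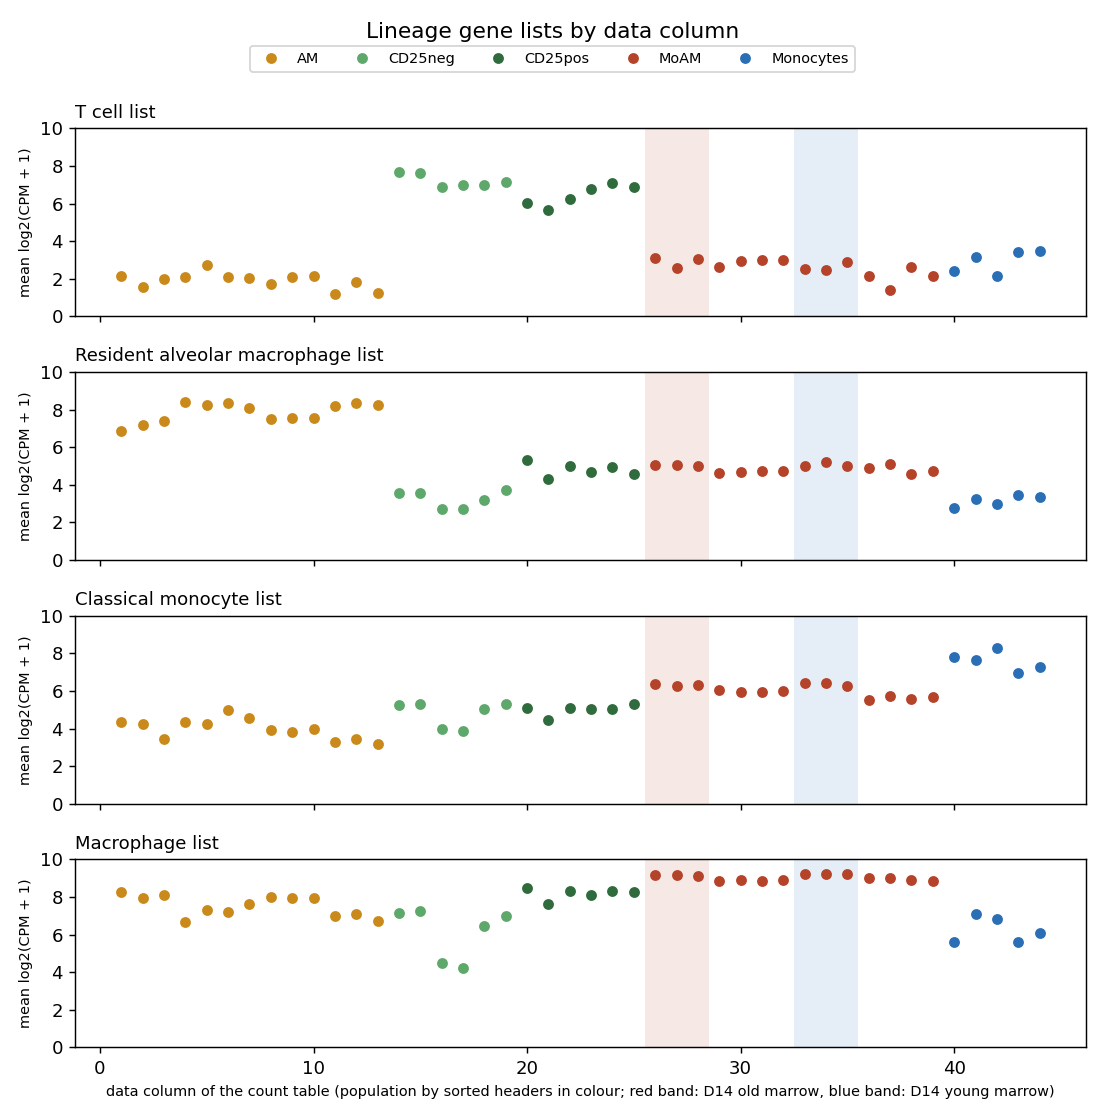
Mean log2(CPM + 1) of 4 lineage gene lists (vertical axes) in each of the 44 data columns (horizontal axis), coloured by the population that the sorted headers give, with bands over the day 14 MoAM columns of old (red) and young (blue) marrow. The 12 columns titled CD25pos or CD25neg are highest in T cell genes, the 13 titled AM in resident alveolar macrophage genes, the 5 titled Monocytes in classical monocyte genes and the 14 titled MoAM in macrophage genes.

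The defining macrophage markers were present at high level in all 6 libraries. In CPM, a gene's counts relative to the total of its library on a fixed scale, levels were 2067 to 2357 in old and 2297 to 2588 in young marrow for C1qa, and 3960 to 4861 against 3655 to 4462 for Fn1. Spp1 lay at 6190 to 8974 CPM over the 6 libraries, against 1714 to 3439 CPM in the 8 libraries of day 7, and Mmp12 at 1037 to 2033 CPM against 403.3 to 519.5 CPM. Defining genes of other cells ranged from 0 to the level of S100a8, a neutrophil and monocyte gene, at 949 to 1280 CPM. Cd3e of T cells was 0.359 to 4.43 CPM, Cd79a of B cells 0.590 to 3.23 CPM, Sftpc of alveolar epithelium 9.44 to 28.3 CPM, Cdh5 of endothelium 27.0 to 47.8 CPM and Epx of eosinophils 0 in all 6 libraries. Pecam1, also of endothelium, was 48.5 to 63.5 CPM, Retnlg of neutrophils 92.4 to 184 CPM and Ly6c2 of classical monocytes 96.1 to 220 CPM. Hbb-bs, a haemoglobin chain of red cells, was 148 to 327 CPM.

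Depth differed between the groups. Total counts were 5744232, 9921734 and 8368091 in old marrow 1, 2 and 3, and 2787165, 5651589 and 3389258 in young marrow 1, 2 and 3, so no young library was as deep as any old one. Mitochondrial transcripts were 2.17 to 2.49% of counts in old and 2.38 to 3.09% in young marrow. The old libraries were more alike than the young ones: Spearman correlations across genes were 0.985 to 0.986 between old pairs, 0.961 to 0.972 between young pairs and 0.966 to 0.978 between old and young libraries. Young marrow 3 stood apart from young marrow 1 and 2 in several genes named below.

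In the edgeR fit 263 of 10690 genes were higher in old marrow (2.46% of genes tested) and 199 were lower (1.86%). The changes were mostly small: the median absolute log2 fold change of called genes was 0.63, and 40 of the 462 reached 1. Among called genes were lower Tnf, Lyz2, Jund and Egr1 and higher Nfkb1, Bach2, Zeb2 and Ccl8. In 452 of the 462 called genes every library of one group lay above every library of the other, which held for 25.1% of all genes tested. An unadjusted p under 0.05 was seen for 1699 genes. When all 44 libraries shared 1 estimate of the spread, 0 genes were called by edgeR, with 201 of 12940 at an unadjusted p under 0.05. Leaving out 1 of the 6 libraries left 183 (old 3) to 396 (young 3) calls, and 140 genes, 105 higher and 35 lower, were called whichever was left out.

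**Figure D2:**
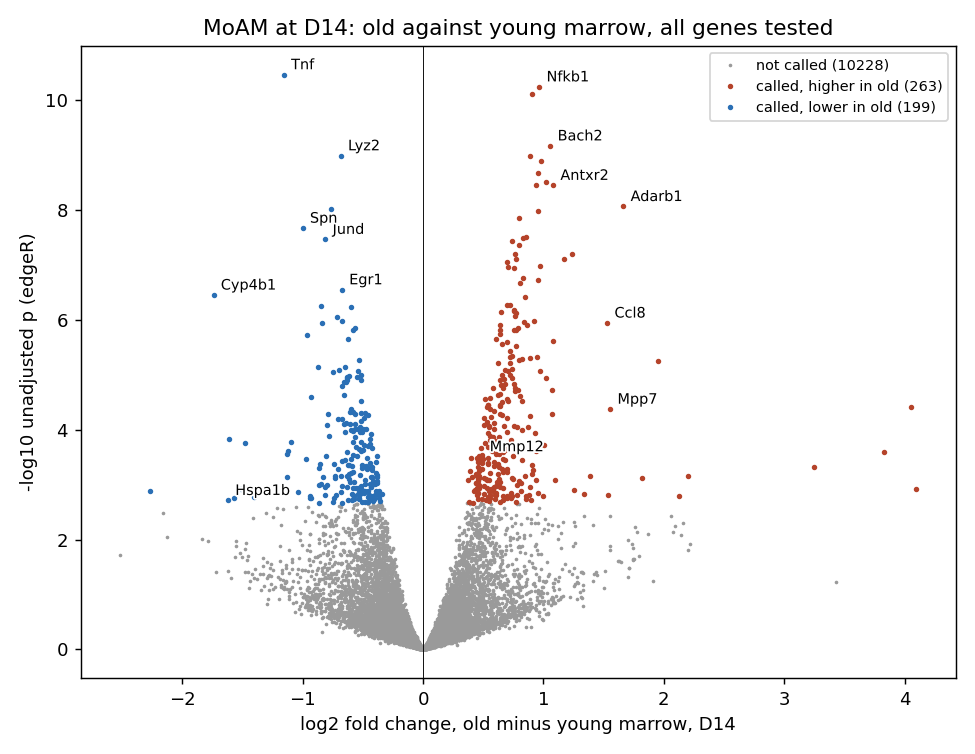
Log2 fold change of old minus young marrow at day 14 (horizontal axis) against −log10 of the unadjusted edgeR p (vertical axis) for 10690 genes, with called genes in red (263 higher in old) and blue (199 lower). Tnf and Nfkb1 have the smallest p on either side, and most called genes lie within 1 log2 unit of 0.

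Of 40 gene lists, the one with most called members was that of immediate early and heat shock genes, which cells induce within minutes of a stimulus, of heat or of tissue dissociation. Of 30 listed genes 14 were lower in old marrow and 0 higher, 46.7% against the 1.86% of all genes that were lower. The shares of the lists below stand against this 1.86% and the 2.46% of all genes that were higher. The median log2 fold change of the list was -0.45, against -0.03 over all genes. In 19 of the 30 the libraries of the groups did not overlap, which held for 25.1% of all genes tested. The count of lower genes was 8, 10 and 7 without old marrow 1, 2 and 3, and 9, 11 and 14 without young marrow 1, 2 and 3, with 1 higher gene without young marrow 3. The lower genes were the AP-1 transcription factor genes Fos, Jun, Jund and Atf3, the zinc finger factor Egr1, the early response genes Ier2 and Ier3, the mRNA decay factor Zfp36, the phosphatase Dusp2, and the chaperone genes Hspa1a, Hspa1b, Hsp90aa1, Hspa8 and Dnajb1. The list holds genes that respond to the handling of cells, and the time from lung to lysis per library was not given in the sources used here.

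Jund, a subunit of AP-1, had 220, 240 and 202 CPM in old marrow 1, 2 and 3 and 425, 317 and 423 CPM in young marrow 1, 2 and 3. From here on CPM are scaled by the TMM factors of the fit. The log2 fold change was -0.81 (standard error 0.13, adjusted p = 1.92e-05). Egr1 had 418, 469 and 413 CPM in old against 684, 688 and 701 CPM in young marrow. Its log2 fold change was -0.67 (standard error 0.12, adjusted p = 9.17e-05). In both genes the 3 young libraries lay above all old ones, and the 2 genes were called whichever day 14 library was left out.

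Fos, the partner of Jun in AP-1, was among the highest genes of the list at 1450, 1577 and 1453 CPM in old and 2091, 2053 and 2229 CPM in young marrow (log2 fold change -0.51, standard error 0.13, adjusted p = 0.0195). Jun itself had 597, 615 and 542 CPM against 839, 823 and 875 CPM (log2 fold change -0.53, standard error 0.11, adjusted p = 0.000793). Zfp36, which shortens the life of Tnf mRNA, had 1021, 1032 and 1035 CPM against 1518, 1505 and 1737 CPM (log2 fold change -0.62, standard error 0.12, adjusted p = 0.00038). The old libraries were close to one another in these genes and below all young ones. Not every early gene moved: Fosb had 1301, 1148 and 1252 CPM in old against 1263, 1132 and 1052 CPM in young marrow (log2 fold change 0.10, standard error 0.11, adjusted p = 0.719), and Nr4a1 684, 673 and 662 CPM against 701, 652 and 814 CPM (adjusted p = 0.772). Junb, Dusp1, Klf4 and Btg2 were not called either, with log2 fold changes of -0.17, -0.15, 0.07 and 0.04.

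Among chaperones, Hsp90aa1, the inducible cytosolic HSP90, had 391, 388 and 440 CPM in old and 601, 612 and 615 CPM in young marrow (log2 fold change -0.59, standard error 0.11, adjusted p = 0.000287). Hspa1a, an inducible HSP70, had 126, 113 and 124 CPM against 263, 249 and 141 CPM, a log2 fold change of -0.85 (standard error 0.15, adjusted p = 0.000157). Hspa1b, its near-identical copy, had 36.3, 39 and 35.7 CPM against 172, 131 and 39.1 CPM (log2 fold change -1.62, standard error 0.39, adjusted p = 0.0461). In both HSP70 genes young marrow 1 and 2 were high and young marrow 3 lay close to the old libraries. Hspa1b lost its call in 5 of the 6 fits that left out 1 library, and Hspa1a kept it in all 6. Reads of the pair may be split between the copies, so each is uncertain by itself.

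Promoter stretches of this group are shown because its members moved together, and because heat shock elements are the known binding site of heat shock factor. RefSeq's promoter table (GRCm38.p6, from 250 bases before to 50 after the start) held 10 of the 14 lower genes. Egr1, Ier2, Hsp90aa1 and Hspa8 were without an entry, so the counts below leave them out. The letters GAANNTTC, a pair of facing heat shock units, were found on either strand in 3 of the 10, Hspa1a, Hspa1b and Jun, and in 5.63% of 8578 promoters of tested genes. The promoters of Hspa1a and Hspa1b were identical at 296 of 300 bases, so their matches are not separate ones. The CArG box, bound by serum response factor, was found in 1 of the 10, Zfp36, and in 1.25% of promoters. The opposed arrangement of heat shock units, TTCNNGAA, was found in 0 of the 10 and in 6.81% of promoters. The AP-1 site TGANTCA, searched on both strands, was found in 0 of the 10 and in 4.88% of promoters, and the cAMP response element TGACGTCA in 0 of the 10 and in 3.28%. The shorter TGACG, which any full TGACGTCA also holds, was in 4 of the 10 (Fos, Atf3, Dusp2 and Dnajb1) and in 32.6% of promoters. A match describes these letters in this window and does not show a site in use. The 140 bases before each start are printed 5′ to 3′ in the direction of the gene, with the matched letters in capitals.
Hspa1a, minus strand of chr17:34972157-34972296, GAANNTTC in capitals: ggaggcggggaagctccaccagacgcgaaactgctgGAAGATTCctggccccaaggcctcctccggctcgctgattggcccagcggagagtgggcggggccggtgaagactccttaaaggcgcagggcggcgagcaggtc
Hspa1b, minus strand of chr17:34959239-34959378, GAANNTTC in capitals: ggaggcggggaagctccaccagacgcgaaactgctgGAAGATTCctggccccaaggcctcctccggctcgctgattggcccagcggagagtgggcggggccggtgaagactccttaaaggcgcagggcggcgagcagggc
Jun, minus strand of chr4:95052223-95052362, GAANNTTC in capitals: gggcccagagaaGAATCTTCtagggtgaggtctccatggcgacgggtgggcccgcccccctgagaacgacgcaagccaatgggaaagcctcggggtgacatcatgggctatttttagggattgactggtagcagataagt
Zfp36, minus strand of chr7:28379229-28379368, CArG box in capitals: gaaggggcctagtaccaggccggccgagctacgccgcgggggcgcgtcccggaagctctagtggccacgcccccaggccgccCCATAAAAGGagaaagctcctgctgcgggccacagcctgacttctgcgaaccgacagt
The heat shock element of both HSP70 genes begins 104 bases before the start and that of Jun 128 bases before it. The printed stretches of Hspa1a and Hspa1b were identical at 139 of 140 bases.

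**Figure D3:**
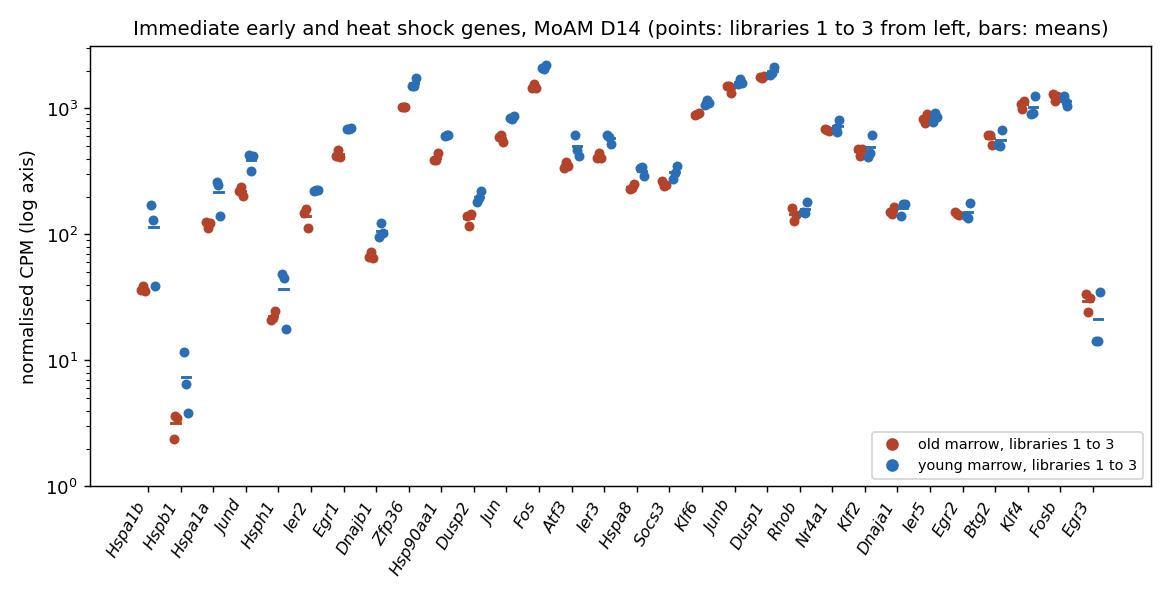
Normalised CPM (log axis) of the 30 immediate early and heat shock genes in each of the 3 old (red) and 3 young (blue) libraries at day 14, ordered from the most negative to the most positive log2 fold change, with bars at group means. In the 14 lower genes the red points lie below the blue ones, and in Hspa1b and Hspa1a the third young library lies close to the old ones.

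Inflammatory cytokine genes included the gene with the smallest p of the comparison. Tnf, the gene of tumour necrosis factor, had 86.9, 82.1 and 81.7 CPM in old and 219, 184 and 156 CPM in young marrow. The 3 old libraries lay close to each other and below the lowest young one, with a log2 fold change of -1.16 (standard error 0.14, adjusted p = 2.82e-07). Of 26 proinflammatory genes 5 were lower (19.2%) and 0 higher, with a list median of -0.13. Leaving out 1 library left 3 (old 1, old 3 or young 1) to 7 (young 3) of them lower. Besides Tnf these were the chemokine genes Ccl3 and Ccl4, which attract monocytes and T cells, Acod1, which makes itaconate, and Ier3. Ccl3 had 74.9, 74.8 and 77.6 CPM against 158, 135 and 114 CPM (log2 fold change -0.84, adjusted p = 0.000245), and Ccl4 127, 101 and 132 CPM against 181, 217 and 159 CPM (log2 fold change -0.64, adjusted p = 0.00145). Il1b, the gene of interleukin-1 beta, was not called, with 2234, 1942 and 2229 CPM against 1971, 1844 and 2389 CPM (adjusted p = 0.903). Ccl2, the ligand of CCR2, had 225, 200 and 211 CPM against 279, 256 and 265 CPM and was not called (adjusted p = 0.147). Nfkb1, which codes for the p105 and p50 subunits of NF-κB, was higher: 812, 854 and 850 CPM in old against 482, 448 and 359 CPM in young marrow (log2 fold change 0.97, standard error 0.12, adjusted p = 2.82e-07). Without any 1 of the 6 libraries Tnf, Ccl3, Ccl4 and Nfkb1 were still called, while Acod1 lost its call in 4 of those fits and Ier3 in 3.

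The Tnf promoter is shown because Tnf had the smallest p. It holds the letters TATAAA, the core of a TATA box, 29 bases before the start, as 6.92% of the 8578 promoters do on either strand somewhere in the 300 bases.
Tnf, minus strand of chr17:35202008-35202147, TATAAA in capitals: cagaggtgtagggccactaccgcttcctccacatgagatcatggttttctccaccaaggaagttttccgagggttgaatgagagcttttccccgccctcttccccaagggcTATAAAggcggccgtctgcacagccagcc

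Genes of the profibrotic macrophage state moved in both directions. Of 23 listed genes 2 were higher in old marrow (8.7%) and 4 lower (17.4%), with a median log2 fold change of -0.11. Higher were Arg1, arginase, and Mmp12. Arg1 had 205, 242 and 196 CPM in old and 140, 162 and 165 CPM in young marrow (log2 fold change 0.46, standard error 0.12, adjusted p = 0.0189), with no overlap. Mmp12 had 1945, 1552 and 1989 CPM against 1059, 1132 and 1705 CPM (log2 fold change 0.49, standard error 0.13, adjusted p = 0.0144). There young marrow 3 lay above old marrow 2, so the groups overlapped.

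Spp1, which codes for osteopontin, was lower in old marrow at 6535, 6382 and 6056 CPM against 8949, 9232 and 7389 CPM (log2 fold change -0.43, standard error 0.12, adjusted p = 0.0254). Gpnmb, a glycoprotein of lipid-laden macrophages, had 584, 481 and 554 CPM against 800, 805 and 621 CPM (log2 fold change -0.46, adjusted p = 0.0106). Fabp5, a fatty acid carrier, and Mmp14, a membrane-bound collagenase, fell by 0.60 and 0.52 on the log2 scale. All 4 lower genes separated the groups without overlap, and in Spp1, Gpnmb and Fabp5 young marrow 3 was the young library nearest to the old ones. Fn1 had 3909, 4691 and 3875 CPM against 3838, 3760 and 4484 CPM (adjusted p = 0.908), Trem2 193, 204 and 193 CPM against 249, 260 and 224 CPM (adjusted p = 0.169) and Cd9 1394, 1398 and 1368 CPM against 1484, 1448 and 1330 CPM (adjusted p = 0.93). Leaving out 1 library ended the call of Spp1 in 5 of 6 fits, of Mmp12, Gpnmb and Fabp5 in 4, and of Arg1 and Mmp14 in 2. Without young marrow 3 the list held 3 higher and 6 lower genes, and without young marrow 1 it held 0 of either.

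Alternative activation genes, typical of macrophages exposed to interleukin-4, gave 4 higher (21.1%) and 0 lower of 19, with a median log2 fold change of 0.20. Ccl8, a monocyte chemokine, had 81.1, 35.8 and 79.4 CPM in old and 18.7, 24.9 and 23.4 CPM in young marrow (log2 fold change 1.53, standard error 0.27, adjusted p = 0.000245). Old marrow 2 was the lowest of its group and still above all young libraries. Ccl17, a chemokine for T cells, had 565, 619 and 637 CPM against 322, 467 and 462 CPM (log2 fold change 0.54, standard error 0.13, adjusted p = 0.0109). Irf4, a transcription factor of this programme, had 54.0, 38.4 and 43.7 CPM against 20.5, 28.8 and 26.7 CPM (log2 fold change 0.82, standard error 0.22, adjusted p = 0.0157). Arg1 is the fourth. Mrc1, the mannose receptor, had 572, 583 and 605 CPM against 523, 601 and 571 CPM (adjusted p = 0.889), and Retnla 69.2, 85.5 and 65.9 CPM against 43.6, 33.7 and 99.3 CPM (adjusted p = 0.615). In Retnla and in Chil3, at 990, 854 and 997 CPM against 688, 667 and 1023 CPM (adjusted p = 0.271), young marrow 3 was above every old library. The count without young marrow 3 was 7 higher, and without young marrow 1 it was 1.

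Growth factor genes that act on fibroblasts showed 2 higher (11.8%) and 1 lower (5.88%) of 17. Inhba, the activin A chain of the TGF-beta family, had 44.6, 23.9 and 41.5 CPM in old and 16.5, 18.0 and 17.2 CPM in young marrow (log2 fold change 1.07, standard error 0.24, adjusted p = 0.00393). Areg, amphiregulin, a ligand of the EGF receptor, had 83.0, 72.4 and 85.5 CPM against 48.4, 48.4 and 45.7 CPM (log2 fold change 0.76, standard error 0.18, adjusted p = 0.00568). Gdf15, a stress-induced TGF-beta family member, was lower at 109, 92.5 and 95.3 CPM against 152, 171 and 142 CPM (log2 fold change -0.65, standard error 0.14, adjusted p = 0.00145). In all 3 genes the groups did not overlap, and the calls were kept without each day 14 library in turn. Tgfb1 had 75.2, 83.9 and 68.8 CPM against 49.8, 46.4 and 69.7 CPM (adjusted p = 0.109), and neither Pdgfa (adjusted p = 0.821) nor Igf1 (adjusted p = 0.915) was called.

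**Figure D4:**
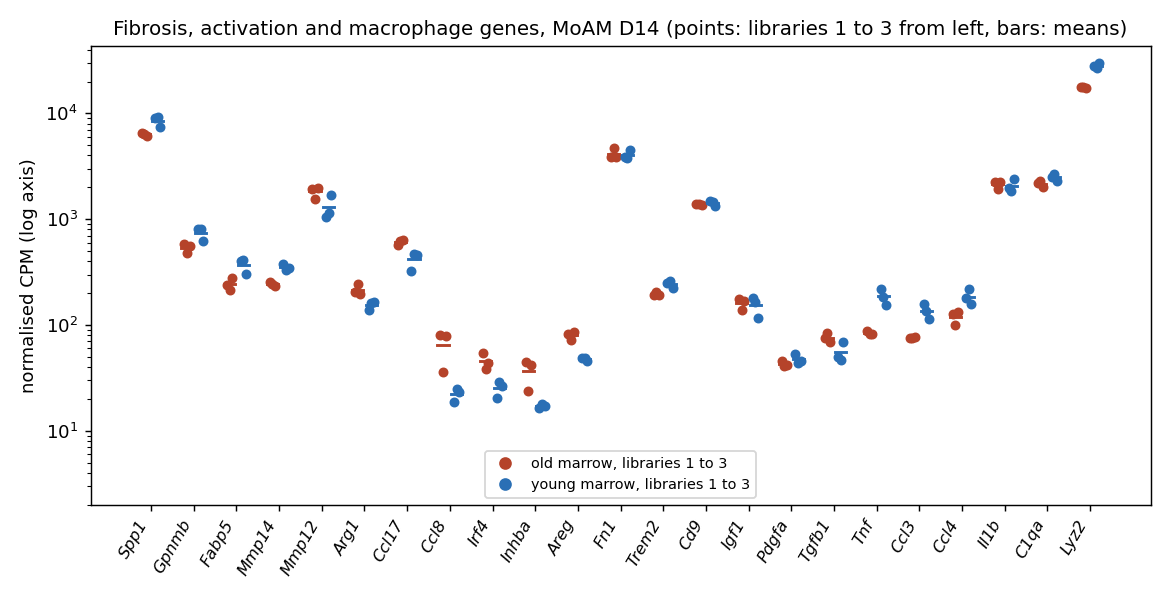
Normalised CPM (log axis) in each of the 3 old (red) and 3 young (blue) libraries at day 14 for fibrosis, activation, cytokine and macrophage marker genes, with bars at group means. Spp1, Gpnmb, Tnf, Ccl3 and Lyz2 lie lower in old marrow and Ccl8, Irf4, Inhba and Areg higher, while in Mmp12 the third young library (1705 CPM) lies above the second old one (1552 CPM).

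Lyz2, the lysozyme gene of myeloid cells, was the lower gene with the smallest p after Tnf, and one of the most abundant transcripts: 17640, 17730 and 17270 CPM in old against 27800, 26920 and 29810 CPM in young marrow. Its log2 fold change was -0.68 (standard error 0.09, adjusted p = 1.84e-06) and the groups lay far apart. At day 7 it was not called (log2 fold change -0.06, adjusted p = 0.834). Macrophage markers gave 1 higher (Mmp12, 5%) and 4 lower (Lyz2, Cd68, Spp1 and C1qb, 20%) of 20. Their summed level was 41780 to 43500 CPM in old and 51960 to 55290 CPM in young marrow (log2 difference -0.32, exact permutation p = 0.1, the smallest that 3 against 3 libraries allow, adjusted p = 0.229). Sums here and below are of CPM without the TMM factors. On that scale Lyz2 alone was 17650 to 18380 CPM in old and 26170 to 29660 CPM in young marrow. The difference of the sum is thus largely that of Lyz2, and the median log2 fold change of the list was -0.135. In bulk libraries fewer cells of a type and less RNA per cell cannot be told apart. C1qa, at 2202, 2274 and 2022 CPM against 2492, 2663 and 2309 CPM, was not called (adjusted p = 0.33), nor was Csf1r (adjusted p = 0.295).

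Lysosomal genes, whose proteins digest material that macrophages take up, gave 5 lower (13.5%) and 0 higher of 37, with a list median of -0.24. Psap, which codes for the precursor of the saposins, had 3727, 3489 and 4326 CPM in old and 5886, 5212 and 5446 CPM in young marrow (log2 fold change -0.52, standard error 0.11, adjusted p = 0.00267). The others were Cd68, Ctsz, Lamp1 and Hexa, at log2 fold changes of -0.49, -0.40, -0.38 and -0.37. Each of these 4 lost its call in 4 or more of the 6 fits that left out a library, and without old marrow 1, 2 or 3 or young marrow 1 the list held 1 lower gene. In 19 of the 37 genes the groups did not overlap, which held for 25.1% of all genes tested. Of all genes 1.86% were lower.

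Chaperones and other genes of the unfolded protein response gave 5 lower of 20 (25%) with a median of -0.32: Manf, Dnajb9, Dnajb11, Canx and Atf3. Dnajb11, an endoplasmic reticulum chaperone, had 103, 100 and 92.4 CPM in old against 168, 146 and 108 CPM in young marrow (log2 fold change -0.51, adjusted p = 0.0323). The list held 0 lower genes without old marrow 1, old marrow 3 or young marrow 1, and 8 without young marrow 3.

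Antigen presentation genes were lower where called. In MHC class II, 2 of 10 were lower (20%): H2-DMb1, which loads peptides, at 840, 827 and 846 CPM against 1101, 1165 and 1319 CPM (log2 fold change -0.51, standard error 0.11, adjusted p = 0.00138), and Ciita, the class II transactivator, at 73.4, 84.2 and 86.6 CPM against 100, 102 and 166 CPM (log2 fold change -0.59, standard error 0.16, adjusted p = 0.0185). H2-Ab1, a chain of the class II molecule itself, had 3266, 3293 and 2857 CPM against 3706, 3735 and 4335 CPM and missed the threshold (adjusted p = 0.0586). Leaving out old marrow 1, 2 or 3 or young marrow 3 left 1 class II gene lower. In class I processing 2 of 13 were lower (15.4%), H2-D1 (log2 fold change -0.43) and H2-K1 (-0.39), whose reads can be shared with close relatives. In that list 0 were lower without old marrow 2, without young marrow 1 and in a fit with each library's trend of expression on gene span taken out as an offset, and 1 without old marrow 1 or 3. Of 44 interferon response genes 4 were lower (9.09%) and 0 higher: Ifitm3, Zbp1, Cxcl9 and Trim30a. Leaving out old marrow 1, 2 or 3 left 1 lower, and leaving out young marrow 1 left 2, as did the span offset. Ifitm3, an antiviral membrane protein, had 272, 250 and 233 CPM against 403, 377 and 403 CPM (log2 fold change -0.65, standard error 0.13, adjusted p = 0.000985). H2-DMb1 and Ifitm3 were called whichever day 14 library was left out.

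Among regulators of macrophage differentiation 3 of 25 were higher (12%) and 2 lower (8%). Zeb2, a repressor that keeps macrophage identity, had 1074, 1094 and 1157 CPM in old and 700, 695 and 601 CPM in young marrow (log2 fold change 0.74, standard error 0.12, adjusted p = 1.93e-05). Runx1 (log2 fold change 0.55) and Mitf (0.49) were the other higher genes, and Egr1 and Csf2ra, a chain of the GM-CSF receptor, the lower ones. The 3 higher genes span 133.8 to 224.7 kb, and of all genes of 100 kb or more 10% were higher. With the span offset 1 gene of the list was higher and 1 lower. Mitf lost its call in 3 of the 6 fits that left out a day 14 library and Csf2ra in 4, while Zeb2, Runx1 and Egr1 kept theirs. In lipid handling 3 of 31 genes were higher (Abca1, Hilpda and Dgat1, 9.68%) and 4 lower (Pltp, Fabp5, Angptl4 and Abcg1, 12.9%). Without 1 library, 1 or 2 were higher and 0 (old 1) to 5 (young 3) lower. Cholesterol synthesis had 0 called genes of 21 by edgeR and by DESeq2, with 5 at an unadjusted p under 0.05, and 3 lower by limma voom. Of 48 cell cycle genes 2 were lower (Ccnd1 and Mcm6, 4.17% against 1.86% of all genes). The count was 0 without old marrow 1, 2 or 3, and 1 without young marrow 1, 2 or 3. Mcm6 had an adjusted p of 0.05 after rounding and was not called with another choice of size factors (RLE). Mki67, a marker of dividing cells, had 24.2, 20.04 and 25.8 CPM against 16.9, 26.03 and 18.7 CPM (adjusted p = 0.849).

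Among genes of ribosomes and mitochondria, the mitochondrially encoded ones had the largest share called, in the lower direction. Of 75 ribosomal protein genes 6 were higher (8%) and 1 lower (1.33%), with a median of 0.13; pseudogenes and copies of these genes make single members uncertain. Leaving out 1 library left 1 (old 1) to 13 (young 2) of them higher. Of 58 nuclear genes of oxidative phosphorylation 1 was higher, 1.72% against 2.46% of all genes. It was Cox7b, a subunit of cytochrome c oxidase, at 690, 555 and 708 CPM against 389, 529 and 301 CPM (log2 fold change 0.68, standard error 0.13, adjusted p = 0.00108). Of 8 mitochondrially encoded genes 3 were lower, mt-Cytb, mt-Nd2 and mt-Nd4 (37.5% against 1.86% of all genes), with a list median of -0.30. Their median span was 1.09 kb, and of all genes spanning under 10 kb 4.8% were lower. With the span offset 1 was lower, as in a fit of the 6 day 14 libraries alone. In mt-Nd2 the groups overlapped, with 2328 CPM in young marrow 3 and 2044 CPM in old marrow 3 but 2336 and 2585 CPM in old marrow 1 and 2, against 3510 and 3802 CPM in young marrow 1 and 2. Leaving out 1 day 14 library left 1 (old 1, old 3, young 1 or young 2) to 4 (young 3) of them lower, and mt-Cytb was called whichever was left out. At day 7 the list had 4 higher and 0 lower genes, with a median of 0.39. mt-Cytb, cytochrome b, had 4127, 4212 and 3605 CPM against 6350, 5938 and 4783 CPM (log2 fold change -0.52, standard error 0.11, adjusted p = 0.00122).

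The remaining pathway lists had few called members. Shares in brackets stand against 2.46% higher and 1.86% lower over all genes. Complement and efferocytosis genes, whose products tag and clear dying cells, gave 1 higher (Abca1, a cholesterol exporter, 4.17%) and 2 lower (Mfge8 and C1qb, 8.33%) of 24. Mfge8, which bridges phagocytes to dying cells, had 112, 115 and 106 CPM in old and 175, 197 and 167 CPM in young marrow (log2 fold change -0.70, standard error 0.14, adjusted p = 0.00107), with no overlap. Matrix and protease genes gave 1 higher (Mmp12, 3.23%) and 2 lower (Mmp14 and Tgfbi, 6.45%) of 31. The interleukin-10 response had Etv3 higher of 15 (6.67%), and the glucocorticoid response Fkbp5 higher of 12 (8.33%). Glycolysis and hypoxia genes gave Ndrg1 higher and Pkm lower of 23 (4.35% each). That list had 0 called without old marrow 1, 2 or 3 or young marrow 1. Oxidative stress genes gave the cystine transporter Slc7a11 higher (4.55%) and Fth1, the ferritin heavy chain, and Prdx6 lower (9.09%) of 22. Fth1 had 7043, 6565 and 6874 CPM against 9086, 9863 and 9143 CPM (log2 fold change -0.46, standard error 0.10, adjusted p = 0.00409). Senescence genes gave 3 lower of 18 (Gdf15, Cdkn1b and Ccnd1, 16.7%), and Cdkn1a, the p21 inhibitor, had 306, 275 and 292 CPM against 364, 328 and 295 CPM and was not called (adjusted p = 0.488). Mfge8, Fth1 and Gdf15 kept their calls in all 6 fits that left out 1 library. Prdx6 lost its call in 6 of them, and Ndrg1, Pkm, Cdkn1b, Tgfbi and C1qb in 5. Etv3, Fkbp5, Slc7a11, Ccnd1 and Mmp12 lost it in 4, Mmp14 in 2 and Abca1 in 1.

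Markers of other cells differed in level between the groups. Over all genes tested 2.46% were called higher and 1.86% lower. Of 13 fibroblast and smooth muscle markers 1 was called, Mgp, a matrix protein, at 446, 271 and 403 CPM in old and 205, 223 and 176 CPM in young marrow (log2 fold change 0.89, standard error 0.16, adjusted p = 0.000742). The summed level of the list was 798, 509 and 717 CPM in old against 419, 406 and 364 CPM in young marrow (log2 difference 0.75, exact permutation p = 0.1, adjusted p = 0.229). Endothelial markers went the other way, with Kdr, Cldn5 and Car4 lower of 16 and a summed level of 397 to 436 CPM in old against 456 to 555 CPM in young marrow. Kdr, the VEGF receptor, had 41.1, 38.7 and 48.5 CPM against 96.7, 86.3 and 52.5 CPM (log2 fold change -0.87, adjusted p = 0.000985), where young marrow 3 was again nearest to old marrow. B cell markers were higher in sum, at 218 to 246 CPM against 133 to 192 CPM, with Bank1 and Ebf1 called of 9. Neither was called without old marrow 3, young marrow 1 or young marrow 2, or with the gene span offset. Bank1 was also lost without old marrow 1 or 2. T cell markers had 0 called of 22 by edgeR, DESeq2 and limma voom, with 1 at an unadjusted p under 0.05. Classical monocyte markers gave 4 lower of 15 (Ly6c2, Ifitm6, Ms4a4c and Hp), with sums of 3780 to 3965 against 3818 to 3892 CPM. Without 1 library 0 (old 2 or young 1), 1 (old 1 or old 3), 2 (young 2) or 3 (young 3) of these markers were lower, and with the span offset 1 was lower and 1 higher. Resident alveolar macrophage markers had Car4 and Abcg1 lower of 21, interstitial macrophage markers Ccl8 higher and Mgl2 lower of 12, and nonclassical monocyte markers Spn lower of 11. Neutrophil markers had Retnlg higher and Acod1 lower of 16, dendritic cell markers Ccl17 higher and Cd209a lower of 17, and NK and innate lymphoid markers Areg higher of 9. Of these markers Retnlg, Cd209a and Abcg1 lost their calls in 5 of the 6 fits that left out 1 library, as did the endothelial Cldn5. Acod1 lost its call in 4, Car4 in 3 and Ccl17 in 2. Ccl8, Mgl2, Spn, Areg and Kdr kept theirs in all 6. Alveolar epithelium (13 markers tested, 3 at an unadjusted p under 0.05), eosinophil and mast cell (2 tested, 0) and erythroid and platelet lists (6 tested, 0) had 0 called by edgeR and by DESeq2, and limma voom called 2 epithelial markers lower. Uty, a gene of the Y chromosome and 1 of 4 sex-linked genes tested, had 73.9, 87.4 and 74.5 CPM in old against 50.6, 42.2 and 29.95 CPM in young marrow (log2 fold change 0.95, standard error 0.19, adjusted p = 0.000734), and the other three were not called. None of the 16 sums passed after adjustment, which 3 against 3 libraries cannot reach. The part of other cells in the macrophage gene differences was not tested.

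Called genes differed in length by direction, measured as the genomic span from the first to the last base of a gene. The median span was 129.6 kb for the 263 higher genes, 9.44 kb for the 199 lower genes and 26.8 kb for genes not called. Of 1617 genes spanning 100 kb or more 10% were higher and 0.124% lower, and of 2229 genes under 10 kb 0.852% were higher and 4.8% lower. The difference ran through the libraries: the median deviation of 1182 genes of 100 kb or more minus that of 1621 genes under 10 kb was 0.19, 0.35 and 0.26 on the log2 scale in old marrow 1, 2 and 3 and -0.11, -0.14 and -0.12 in young marrow 1, 2 and 3. At day 7 it was -0.26 to -0.02 in old and -0.16 to 0.19 in young marrow. The immediate early list had a median span of 4.10 kb and the proinflammatory list of 4.05 kb. With a span trend per library as an offset, chosen after the spans were seen, 248 genes were called, 154 higher and 94 lower, of which 210 were among the 462.

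With that offset the immediate early list kept 9 lower genes of 30, at a median of -0.34. Tnf, Lyz2, Jund, Egr1, Jun, Zfp36, Hspa1a, Nfkb1 and Zeb2 were still called. Hspa1b, Spp1, Cldn5, C1qb and Runx1 were not. The ribosomal list went from 6 to 17 higher genes of 75. With the day 14 libraries thinned to the smallest total among them, also chosen after the totals were seen, 375 genes were called, 358 of them among the 462. The part of gene span in the differences was not tested beyond these fits.

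**Figure D5:**
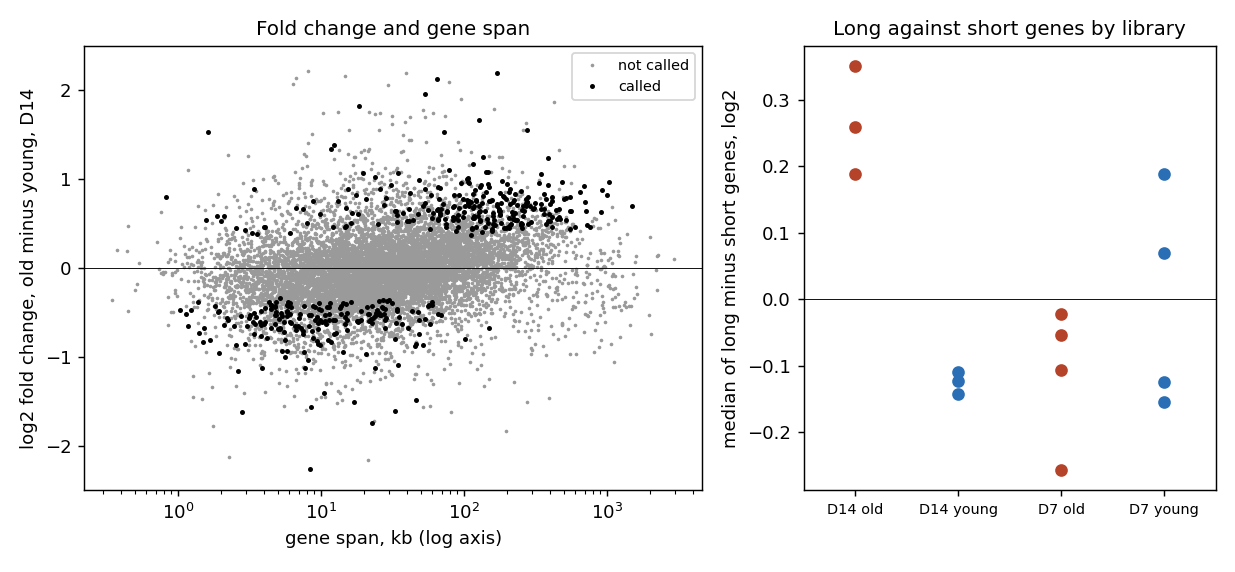
Left, log2 fold change of old minus young marrow at day 14 (vertical axis) against gene span in kb (horizontal log axis), with called genes in black; 6 genes outside 2.5 log2 units are not drawn. Right, the median deviation of genes of 100 kb or more minus that of genes under 10 kb in each MoAM library, which is 0.19 to 0.35 in old and -0.14 to -0.11 in young marrow at day 14.

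The genes with the largest changes, at 10 CPM or more in a group and without overlap, were not members of the pathway lists for the most part. Adarb1, an adenosine deaminase that edits RNA, had 49.7, 51.8 and 44.3 CPM in old and 17.2, 14.8 and 14.2 CPM in young marrow (log2 fold change 1.66, standard error 0.25, adjusted p = 7.69e-06). Mpp7, a scaffold protein of cell junctions, had 237, 202 and 282 CPM against 89.4, 111 and 42.4 CPM (log2 fold change 1.56, standard error 0.26, adjusted p = 0.00344). Fap, a protease best known from activated fibroblasts, had 9.26, 11.1 and 9.70 CPM against 2.93, 3.46 and 3.86 CPM (log2 fold change 1.54, adjusted p = 0.041), and lost its call in all 6 fits that left out a library. Gab1, an adaptor of growth factor receptors, had 73.4, 81.2 and 88.3 CPM against 35.2, 40.6 and 31.1 CPM (log2 fold change 1.18, adjusted p = 3.39e-05). Antxr2, a receptor for collagen and anthrax toxin, had 419, 499 and 428 CPM against 219, 241 and 176 CPM (log2 fold change 1.08, adjusted p = 3.46e-06). Tmtc2 and Adgrg6 rose by 1.23 and 1.08 on the log2 scale. Adarb1, Mpp7, Gab1, Antxr2, Tmtc2, Adgrg6 and Ccl8 were called whichever day 14 library was left out. Ankrd16, Zc3hav1l, Kazn and Micu3 complete the 12 higher genes, at log2 fold changes of 1.39, 1.34, 1.25 and 1.10, and each lost its call in 5 or more of those fits.

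On the lower side Cyp4b1, a cytochrome P450 of lung epithelium and endothelium, had 7.37, 5.45 and 4.91 CPM in old and 23.8, 24.2 and 10.4 CPM in young marrow (log2 fold change -1.74, standard error 0.30, adjusted p = 0.000111). It was followed by Hspa1b, Ildr1, Mpi, Mcat, Padi2, Clec2i, Tnf, Armc5, Mtmr4, Ly6i and Tmcc2, with log2 fold changes from -1.62 to -1.09. Apart from Cyp4b1 and Tnf, each of these lost its call in 3 or more of the 6 fits. Spn, the sialomucin CD43 that is high in nonclassical monocytes, had 60.5, 63.7 and 69.8 CPM against 117, 124 and 147 CPM (log2 fold change -0.999, standard error 0.15, adjusted p = 1.43e-05), and kept its call in all 6.

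The old against young difference at day 14 was then set beside that at day 7 in the same fit. At day 7 194 genes were called (1.81%), 133 higher and 61 lower in old marrow, and the difference between the days passed for 594 genes (5.56%), 322 of them higher and 272 lower at day 14 relative to day 7. Of the 462 genes called at day 14, 278 also passed this test of the difference, and 30 were called at day 7, of which 25 had the opposite sign there. Nfkb1 is an example: at day 7 it had 515 ± 17.9 CPM in old and 689 ± 120 CPM in young marrow (SD, n = 4 each), a log2 fold change of -0.44 by edgeR (adjusted p = 0.0144), against 0.97 at day 14. Tnf had 192 ± 24.6 CPM against 176 ± 32.1 CPM at day 7 (SD, n = 4 each; edgeR adjusted p = 0.851), and the difference between the days was -1.25 (standard error 0.20, adjusted p = 1.61e-05). Jund turned from a log2 fold change of 0.45 at day 7 to -0.81 at day 14, and the immediate early list from a median of -0.02 to -0.45. For Hspa1a and Jun the difference between the days did not pass (adjusted p = 0.0582 and 0.106), nor for Arg1 (0.346) and Mmp12 (0.117). Spp1 was higher in old marrow at day 7 (log2 fold change 0.47, adjusted p = 0.00562) and lower at day 14, a difference of -0.91 (adjusted p = 0.00014).

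Markers of other cells were among the day 7 calls. Of 16 endothelial markers 9 were higher in old marrow at day 7, with a median log2 fold change of 1.16, and of 13 fibroblast and smooth muscle markers 8 were higher, with a median of 1.6. Cdh5, the cadherin of endothelium, had 72.1 ± 10.9 CPM in old and 17.8 ± 5 CPM in young marrow at day 7 (SD, n = 4 each), a log2 fold change of 2.07 by edgeR (adjusted p = 2.16e-07). These day 7 differences enter the test between the days, and their part in it was not tested.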

How the data were processed

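Gene counts per library, deposited by the authors, were used as whole numbers; a second deposited table, in CPM, was not used. Per the labels' protocols, RNA was isolated with RNeasy Micro and libraries were made with a QuantSeq 3′ FWD kit and a UMI module. Per the submitters' processing notes, the tools were Trim Galore 0.6.6, FastQC, STAR 2.7.9a, featureCounts, Picard and edgeR 3.36.0, with the builds mm10 and GRCm39. No source used here gives UMI collapsing or use of strand, so reads of overlapping genes cannot be separated. Columns were assigned by sorted headers, and 0 columns were left out. In R 4.3.3, edgeR 4.0.16 (filterByExpr, TMM, robust quasi-likelihood F test, Benjamini-Hochberg over all genes, called at 0.05) was fitted to all 14 MoAM libraries in 4 groups; every gene's adjusted p is from it unless another test is named, and standard errors are of the log2 fold change. Limma voom (limma 3.58.1) and DESeq2 1.42.0 were alternatives. Marker sums used an exact two-sided permutation test with adjustment over 16 lists. Members, lists and the naming rule (12 higher and 12 lower called genes by size with a mean of 10 CPM, up to 10 called members by p per list, a panel of 38, and 5 genes each way for the difference between days) were chosen with earlier results of these data known; other genes were named after their values were seen. Gene spans came from GENCODE M21, matched for 97.4% of symbols. No pair of libraries within the old or within the young day 14 group was identical, and other pairs were not compared.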

Additional observations from a re-analysis of the deposited data

Results flagged for a closer look

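The old against young difference at day 14 differed from that at day 7, by the edgeR test of the difference itself, for the 10 genes that the naming rule picked by p. Each value is the day 14 minus the day 7 log2 fold change. It was 1.41 for Nfkb1 (adjusted p = 1.91e-08), 1.31 for Spag9 (3.32e-08), 1.54 for Bach2 (4.23e-07), 1.26 for Sik3 (6.24e-07) and 1.52 for Antxr2 (1.47e-06). These 5 genes were higher in old marrow in 3 of 3 libraries at day 14, with no overlap, and had negative log2 fold changes at day 7, of which those of Nfkb1 and Spag9 passed. They span 106.9 to 347.3 kb, and of all genes of 100 kb or more 10% were higher at day 14. Their day 14 calls were kept with the span offset, and the part of gene span in these values was not tested. The day 14 minus day 7 value was -2.15 for Ly6c1 (5.54e-10), -1.80 for Ly6a (1.65e-09), -3.74 for Cyp4b1 (5.17e-08), -2.49 for Cldn5 (2.57e-07) and -1.82 for Cav1 (1.10e-06). These 5 are genes that lung endothelium expresses, and all 5 were called higher in old marrow at day 7. At day 14 Cyp4b1, Cldn5 and Cav1 were called lower, while Ly6a (log2 fold change -0.41, adjusted p = 0.0559) and Ly6c1 (-0.23, adjusted p = 0.481) were not. Cldn5 lost its day 14 call in 5 of the 6 fits that left out a day 14 library and Cav1 in 4. Both also lost it with the span offset, and Cyp4b1 kept its call in all of these fits. Endothelial marker genes as a list were higher in old marrow at day 7 in 9 of 16, and their part in these values was not tested.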

How the results depend on the processing

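Against 462 called genes at day 14, 56.9% of them higher, limma voom called 1196 (49.9% higher), edgeR on the 6 day 14 libraries alone 589, DESeq2 584, no filter 464, a filter of 10 CPM in 3 libraries 482, RLE factors 460 (450 shared with the 462) and day 14 libraries thinned to the smallest total 375. The fit of all 44 libraries gave 0, the printed headers 1 and the span offset 248; the cause of the difference for the first was not tested. Leaving out 1 day 14 library gave 183 to 396: 243, 219 and 183 without old marrow 1, 2 and 3, and 234, 379 and 396 without young marrow 1, 2 and 3. The share higher was 76.1%, 65.3%, 74.3%, 65.8%, 58.6% and 52% in these. For the difference between the days, 594 genes became 1 with all 44 libraries, 0 with the printed headers (621 at an unadjusted p under 0.05), 391 with the span offset, and 362 to 662 without 1 of the 14 libraries, with 362 without old marrow 3 of day 14 and 377 without young marrow 3 of day 7. With a replicate block 403 genes were called at day 14 and 558 for the difference between the days. Same-numbered old and young libraries did not deviate together (correlations -0.02, -0.03 and -0.01), so the numbers are taken as names only. Of 121 named genes that were called, 40 were called without each day 14 library in turn, 71 with the span offset and 0 in all 16 alternatives, the fit of all 44 libraries included. These 16 do not include the printed headers or the fits without a day 7 library. Within them no named gene that was called in the fit or in an alternative changed sign. The smaller totals in young marrow limit genes of low count. Thinning and the span offset were added after the data were seen.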
